A study of Homo sapiens with 6 samples.

Results

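The mRNAs of 44 translation initiation and elongation factors were compared between K562 cells that received siRNAs against αCP1 and αCP2 and K562 cells that received control siRNAs. The members were chosen by gene symbol as the named subunits and partners of the eIF1, eIF2, eIF2B, eIF3, eIF4, eIF5 and eEF groups, and all 44 were found among the 57150 gene rows of the deposited table. For the one symbol with a second row, EIF3L, the row with the higher mean level was kept. EIF6 is described with the eIF5 group.

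K562 is a human erythroleukemia cell line. The group labelled aCP KD holds 3 libraries from cells transfected with siRNAs that each target both αCP mRNAs, and the group labelled aCP CTRL holds 3 libraries from cells transfected with control siRNAs, directed at an unrelated mRNA or at no human mRNA. All cells were harvested 72 h after transfection, the RNA was sequenced as 100 nt paired-end reads, and most libraries of each group were first made for an earlier study, with 1 of each added later. αCP1 and αCP2, also called PCBP1 and PCBP2, are RNA-binding proteins that bind C-rich sequences, and the study was designed to find the splicing that depends on them.

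The table gave 1 FPKM (a fragment count scaled to transcript length and sequencing depth) and 1 estimated count per gene and group, so the 3 libraries of a group were not separated. There was no replicate check for any value below, no difference could be tested from these values, and no p-value is given. The authors' own p-value and FDR columns in the table were not used. The estimated counts came to 13699340 under the KD label and 11680567 under the CTRL label. What 1 estimated count stands for is not given in the sources used here; the totals lie far below the number of reads that the study states, and PCR copies of a molecule were not told apart. If a count stands for more than 1 fragment the intervals change, and the intervals given below cover counting error only.

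Of the targeted mRNAs, one was nearly level between the columns and the other was higher in the KD-labelled column, so the columns are named by their labels throughout. The FPKM of PCBP1 was 184 under the KD label and 188 under the CTRL label, and that of PCBP2 was 531 and 342. The log2 ratios of the KD to the CTRL column were -0.03 and 0.63. Of 20 erythroid and hematopoietic genes that K562 cells could express, 10 were listed at 0 in both columns, among them GATA1, TAL1 and KLF1. Only HBE1 of these 20 was over 5 FPKM in both columns, at 153 and 35.4, and the list summed to 173 and 49.9. Of 8 epithelial genes, KRT7, KRT8, KRT18 and CLDN4 were over 5 FPKM in both columns, and the list summed to 4370 and 3190. The rest of this list was low, with EPCAM at 3.94 and 3.26 FPKM and CDH1 at 0.363 and 0.426. KRT19 and ESRP1 were at 0 in both columns, so the epithelial list was mixed as well. These genes do not bear out the labelled cell line and knockdown in this table, other measures of the knockdown were not analysed here, and the part of either in the values below was not tested.

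Translation begins when eIF2 brings the initiator tRNA to the small ribosomal subunit, together with eIF1, eIF1A, eIF3 and eIF5. The eIF4 factors bind the mRNA cap, unwind the leader and recruit this complex, and eIF5B joins the large subunit. The eEF1 factors then deliver each aminoacyl-tRNA and eEF2 moves the ribosome along the mRNA. Several of these factors are themselves encoded by mRNAs whose translation follows growth signals.

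All 44 factor genes passed the minimum of a mean FPKM of 1. Their mean FPKM ran from 5.66 for EIF4E to 6019 for EEF2, with a median of 171, and their counts ran from 165 to 56486. Log2 ratios below are of the FPKM in the KD-labelled column over that in the CTRL-labelled column, with 1 added to each, which understates the ratio of low genes. By this measure 28 members were higher and 16 lower in the KD-labelled column, with a median of 0.16, beside 0.01 over the 13741 genes whose mean FPKM was at least 1. In bulk RNA, fewer cells with an mRNA and less of it per cell cannot be told apart.

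The largest differences lay in the eEF1 complex, the eIF3 complex and the factors that act on eIF2 and eIF4E. A log2 ratio of 1 or more was found for 4 members, EEF1D, EEF1G, EIF3G and EIF3F, which is 4 of 44 beside 8.51% of all genes tested. A log2 ratio of -1 or less was found for 3 members, EIF5, EIF2B2 and EIF4EBP2, beside 3.27% of all genes. At a log2 ratio of 0.5 or more there were 7 members beside 22.6% of all genes, and at -0.5 or less there were 8 beside 16.1%. With so few genes and no replicates, nothing about the members as a set is read from these counts.

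The factor genes are highly expressed, and highly expressed genes had another background. Among the 2378 genes whose mean FPKM was at least 50, a level chosen after seeing the data, 13.0% reached a log2 ratio of 1 and 1.30% one of -1 or less. Of the 35 members at this level, 4 and 1 did. Their median log2 ratio was 0.20, beside 0.18 for all genes at this level. The plot of FPKM by factor group shows each pair of values.

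**Figure D1:**
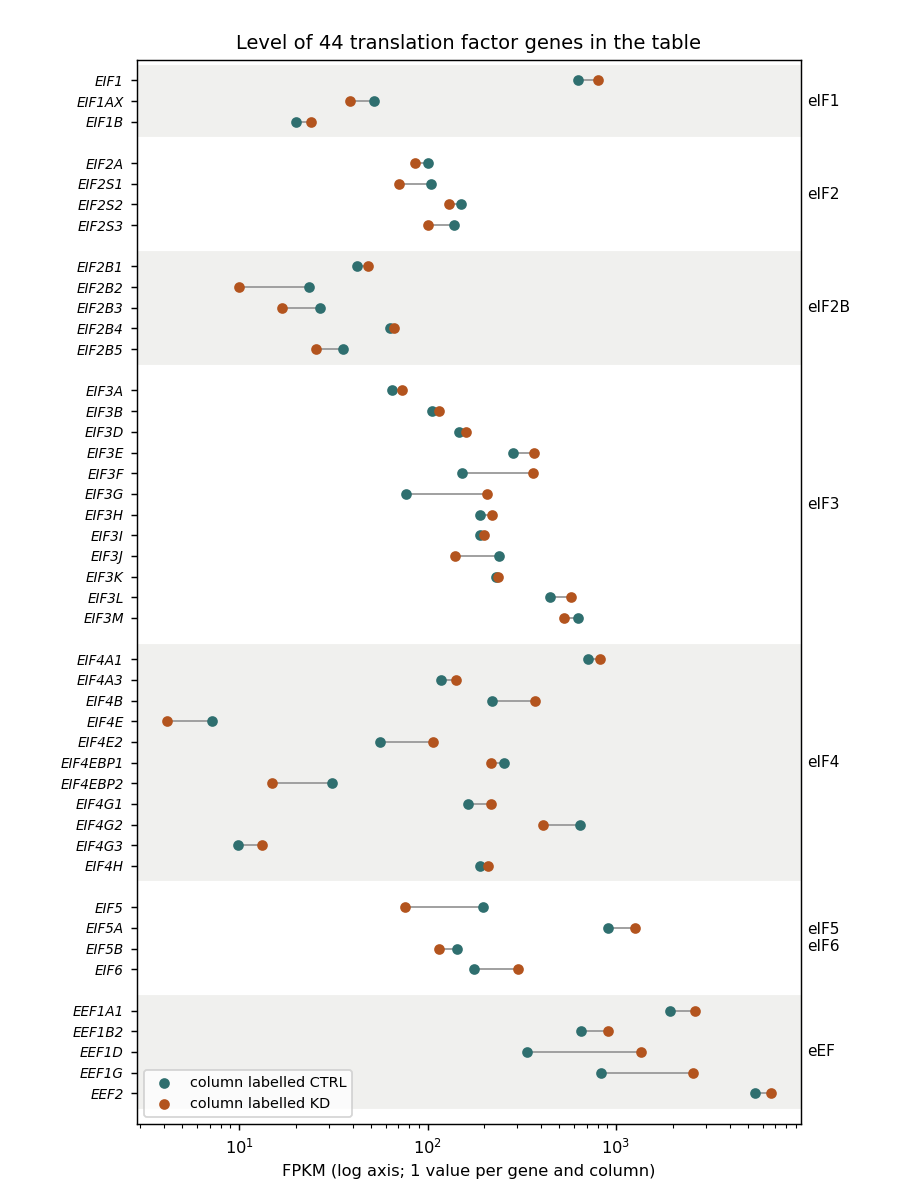
FPKM of the 44 factor genes on a log axis, by factor group, with 1 point for the KD-labelled column and 1 for the CTRL-labelled column and a line joining the pair. EEF2, EEF1A1 and EEF1G hold the highest mean levels and EIF4E the lowest. The longest lines are those of EEF1D, EEF1G, EIF3F, EIF3G, EIF5 and EIF2B2.

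The estimated counts gave a second measure of each difference. Taken as shares of the column totals, they yielded log2 ratios that were lower than the FPKM ratios by a median of 0.21 among members, the count ratio minus the FPKM ratio, neither with a pseudocount, having a median of -0.21 beside -0.23 for all genes. For 39 of 44 members this difference lay between -0.4 and 0. The exceptions were EIF4G1 at -0.62, EIF4E2 at -0.56, EIF5 at 0.09, EIF4E at 0.13 and EEF2 at 0.57. The 95% exact binomial (Clopper-Pearson) interval of the count ratio lay above 0 for 17 members, below 0 for 21 and held 0 for 6. Against the median count ratio of all genes, -0.21, it lay above for 24, below for 15 and held the median for 5. So the balance of higher and lower members depended on the measure, while the genes at either end did not.

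**Figure D2:**
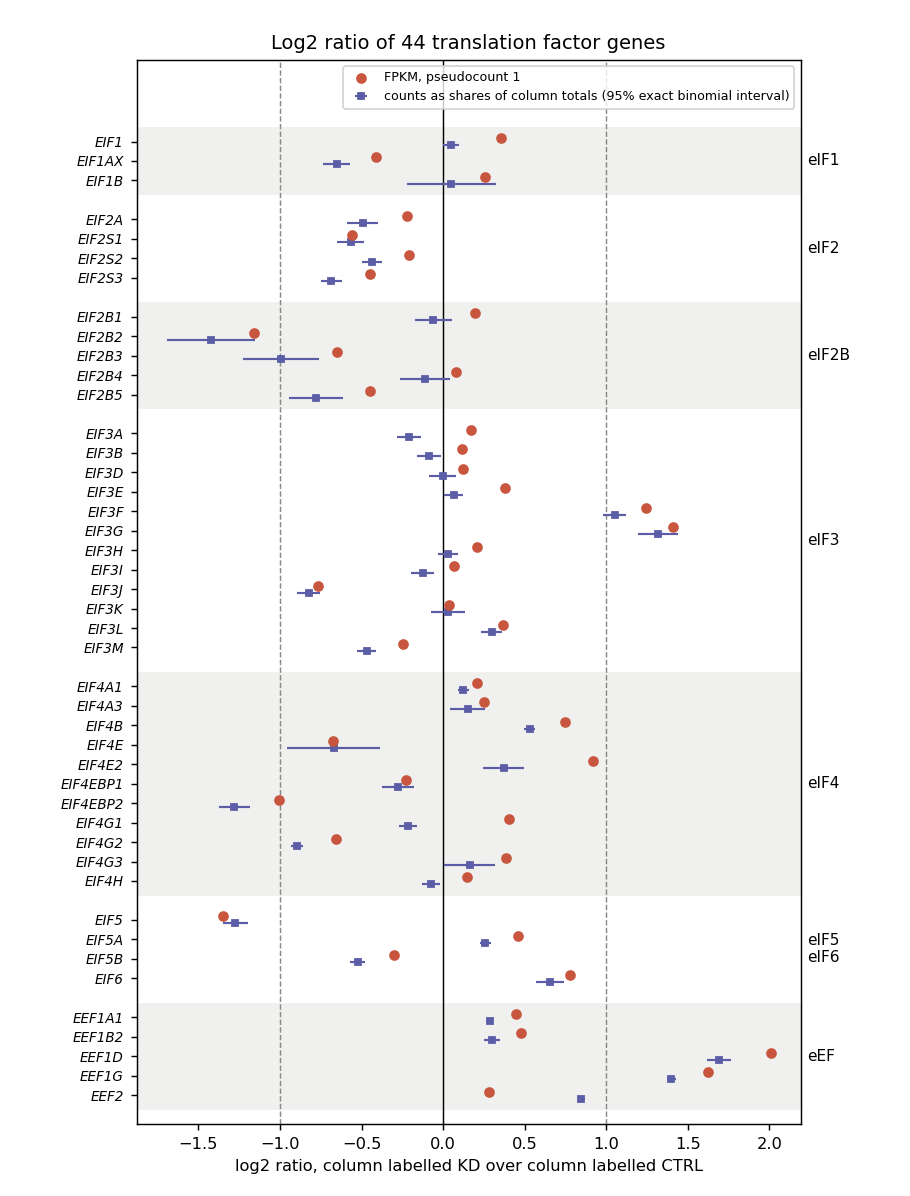
Log2 ratio of the KD-labelled column over the CTRL-labelled column for each factor gene, as FPKM with 1 added (circles) and as counts in shares of the column totals (squares, with the 95% exact binomial interval for counting error). Dashed lines mark log2 ratios of -1 and 1, and the count ratios of most genes lie to the left of the FPKM ratios, with EEF2 to the right.

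The elongation factors held the largest log2 ratios by FPKM, and all 5 were higher in the KD-labelled column, EEF2 excepted once GC content and length were fitted. Their log2 ratios ran from 0.28 to 2.01 with a median of 0.48, while the median was 0.85 by counts and 0.64 under that fit. Their counts made up 1.21% of the KD-labelled column and 0.715% of the CTRL-labelled column. For all 44 members these shares were 2.37% and 1.97%.

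EEF1D encodes the delta subunit of eEF1B, the complex that reloads eEF1A with GTP, and lies on chromosome 8, 144661867 to 144681711 (minus strand, GRCh37). Its FPKM was 1354 under the KD label and 336 under the CTRL label, from counts of 6789 and 1794. This 4.03-fold difference, a log2 ratio of 2.01, was the largest of the 44 genes by FPKM. Once GC content and length were fitted it was 1.29, below EIF3F at 1.48 and EEF1G at 1.39. As shares of the column totals, the counts gave 1.69 (interval 1.61 to 1.77).

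EEF1G encodes the gamma subunit of the same complex and lies on chromosome 11, 62327068 to 62341558 (minus strand, GRCh37). Its FPKM was 2559.6 under the KD label and 829 under the CTRL label, from counts of 43153 and 13947. The log2 ratio was 1.63, a 3.09-fold difference, and the counts gave 1.3995 (1.37 to 1.43). EEF1B2, which encodes the remaining subunit of eEF1B, was the lowest of the eEF genes by mean FPKM and differed less. Its FPKM was 910.2 and 653, from counts of 7992 and 5532, a log2 ratio of 0.48 by FPKM and 0.30 (0.25 to 0.35) by counts. The subunit mRNAs therefore stood in different proportions in the columns. The FPKM of EEF1D was 1.49 times that of EEF1B2 in the KD-labelled column and 0.515 times in the CTRL-labelled column, and that of EEF1G was 2.81 and 1.27 times that of EEF1B2.

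EEF1A1 encodes the GTPase that carries aminoacyl-tRNA to the ribosome. Its FPKM was 2627 under the KD label and 1926 under the CTRL label, from counts of 50769 and 35497, a log2 ratio of 0.45 by FPKM and 0.29 (0.27 to 0.31) by counts. EEF2, the translocase, had the highest mean FPKM of all members, 6604 and 5435, and the lowest log2 ratio of the eEF group, 0.28. Its counts of 56486 and 26780 differed more than its FPKM and gave 0.85 (0.83 to 0.87). EEF2 was thus the one factor for which the count ratio far exceeded the FPKM ratio, and the size of its difference is uncertain.

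Many elongation factor mRNAs are known as TOP mRNAs, which begin with a C followed by a run of pyrimidines and whose translation follows mTOR signals. By textbook knowledge 9 members belong to this class: EEF1A1, EEF1B2, EEF1D, EEF1G, EEF2, EIF3E, EIF3F, EIF3H and EIF4B. This list was drawn up with earlier results of these data known, so its directions are a description and not an independent test. All 9 were higher in the KD-labelled column, EEF2 again excepted under that fit, with log2 ratios from 0.20 to 2.01 and a median of 0.48. By counts all 9 were also above 0, and for 8 of them, EIF3H being the exception, the interval lay above 0. The other 35 members were higher in 19 cases and lower in 16, with a median of 0.07. Of all 13741 genes 51.1% were higher. Each of the 9 had a mean FPKM of at least 50, a level at which the median log2 ratio of all genes was 0.18.

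RefSeq start sites were used to look at this class in sequence. Promoter windows of RefSeq genes on GRCh38.p14 were matched by symbol for 36 of 44 members; EEF1D, EIF2S2, EIF3A, EIF3E, EIF3G, EIF3H, EIF3L and EIF4EBP1 had no entry. The sequences below run from 10 bases before the annotated start through the first 20 bases of the transcript, 5′ to 3′. Capitals mark a C as the first transcribed base with the C and T bases that follow it without a break, where at least 4 follow. The first 5 are TOP members that have this start, EIF2S3 has it but was lower in the KD-labelled column, and EEF1G and EIF2B2 lack it.
EEF1A1: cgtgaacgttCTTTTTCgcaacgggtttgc
EEF2: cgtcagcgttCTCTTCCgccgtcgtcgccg
EEF1B2: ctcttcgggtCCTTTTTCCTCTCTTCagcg
EIF3F: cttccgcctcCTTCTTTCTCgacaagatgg
EIF4B: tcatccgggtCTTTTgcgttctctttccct
EIF2S3: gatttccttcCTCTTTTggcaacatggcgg
EEF1G: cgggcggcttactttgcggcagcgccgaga
EIF2B2: cgcccgccccggaagtgcaaactgtgtggt

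On GRCh38.p14 these windows lie at chr6:73521013-73521042 (minus strand) for EEF1A1, chr19:3985444-3985473 (minus) for EEF2, chr2:206159885-206159914 (plus) for EEF1B2 and chr11:7987327-7987356 (plus) for EIF3F. Those of EIF4B, EIF2S3, EEF1G and EIF2B2 lie at chr12:53006446-53006475 (plus), chrX:24054946-24054975 (plus), chr11:62573872-62573901 (minus) and chr14:75002911-75002940 (plus). EEF1B2 has a second annotated start without the run.

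The start with a C and at least 4 further pyrimidines was searched on the sense strand at the annotated first base. It was found in 4.07% of 35116 promoter windows, in 7.57% of the 8692 genes whose mean FPKM was at least 1 that matched, and in 10 of the 36 matched members, 27.8%. Besides the 6 shown these were EIF2A, EIF3D, EIF3K and EIF3M. Of the 10, 7 were higher and 3 lower in the KD-labelled column, from -0.45 for EIF2S3 to 1.24 for EIF3F. Their median was 0.20, beside 0.10 for matched members without it, and over all matched genes these medians were 0.13 and 0.00. A matching start was thus present in members that were higher and in members that were lower, and EEF1G, among the highest ratios, had none at its annotated base.

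The eIF3 complex, the scaffold that holds the small subunit to the mRNA and the other factors, was represented by 12 genes. Of these, 10 were higher and 2 lower in the KD-labelled column by FPKM, with a median log2 ratio of 0.15, beside 0.01 by counts, and 5 of them changed sign with the measure. Most lay close to 0, and 3 genes stood apart: EIF3G and EIF3F above, and EIF3J below. The other 9 lay between -0.25 and 0.38.

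EIF3G encodes an RNA-binding subunit of the complex and lies on chromosome 19, 10225690 to 10230594 (minus strand, GRCh37). Its FPKM was 207 under the KD label and 77.3 under the CTRL label, from counts of 2181 and 746, a 2.68-fold difference. The log2 ratio was 1.41 by FPKM and 1.32 (1.197 to 1.44) by counts. EIF3G is rich in GC, and once the fitted effect of GC content and length described below was taken out its log2 ratio was 0.86, no longer past 1.

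EIF3F encodes one of the pair of subunits with an MPN fold and lies on chromosome 11, 7991798 to 8023409 (plus strand, GRCh37). Its FPKM was 362 under the KD label and 152 under the CTRL label, from counts of 5406 and 2224. The log2 ratio was 1.24 by FPKM, a 2.38-fold difference, and 1.05 (0.98 to 1.12) by counts. EIF3H, which encodes the other MPN subunit, was at 219 and 189.6 FPKM, a log2 ratio of 0.20 by FPKM and 0.03 (-0.03 to 0.09) by counts. The mRNAs of this pair thus differed unequally between the columns.

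EIF3J encodes a loosely bound factor that sits at the mRNA channel of the small subunit. Its FPKM was 139.9 under the KD label and 239 under the CTRL label, from counts of 2562 and 3871, a log2 ratio of -0.77 by FPKM and -0.83 (-0.90 to -0.75) by counts. It was the lowest of the group by either measure, and by FPKM EIF3M was the only other eIF3 gene below 0.

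EIF3M, with the highest mean FPKM of the group, was at 533 and 632 FPKM, from counts of 4788 and 5653, a log2 ratio of -0.25 by FPKM and -0.47 (-0.53 to -0.41) by counts. EIF3A, the largest subunit, had the lowest mean FPKM, 73.4 and 65, from counts of 3088 and 3041, and its log2 ratio was 0.17 by FPKM and -0.21 (-0.28 to -0.14) by counts. These mRNAs stood at unequal levels: the highest FPKM of the 12 was 7.86 times the lowest in the KD-labelled column and 9.72 times in the CTRL-labelled column. The 5 were EIF3A, EIF3B, EIF3D, EIF3I and EIF3K, with log2 ratios from 0.03 to 0.17 by FPKM, whose sign changed by counts or once GC content and length were fitted. EIF3E at 0.38 and EIF3L at 0.37 were higher by either measure.

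All 4 genes of the eIF2 group were lower in the KD-labelled column, EIF2A excepted under the fit of GC content and length, with a median log2 ratio of -0.33, beside -0.53 by counts and -0.15 under that fit. EIF2S1, EIF2S2 and EIF2S3 encode the alpha, beta and gamma subunits of eIF2, and EIF2A encodes a separate initiator tRNA-binding factor. The alpha subunit is the one that stress kinases phosphorylate. EIF2S1 had the lowest mean FPKM and the lowest ratio of the group, with FPKM of 70.5 and 104 under the KD and CTRL labels, counts of 2143 and 2704, and a log2 ratio of -0.56 by FPKM and -0.57 (-0.65 to -0.48) by counts. EIF2S2 had the highest mean FPKM and the highest ratio, with FPKM of 130.1 and 150.4, counts of 4066 and 4694, and a log2 ratio of -0.21 by FPKM and -0.44 (-0.50 to -0.38) by counts. EIF2S3 lay between them at -0.45 and EIF2A at -0.22. The subunit mRNAs thus lay on the same side of 0, at unequal distances, and none passed a log2 ratio of -1. Once the fitted effect of composition was taken out, EIF2A was at 0.02 and the other 3 stayed below 0, at -0.32 to -0.07.

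The eIF2B group, the exchange factor that reloads eIF2 with GTP, had 5 genes, 2 higher and 3 lower, with a median log2 ratio of -0.45, beside -0.78 by counts. EIF2B2, which encodes the beta subunit, lies on chromosome 14, 75469624 to 75479069 (plus strand, GRCh37). Its FPKM was 9.94 under the KD label and 23.4 under the CTRL label, from counts of 165 and 377, the former being the lowest count of any member. The log2 ratio was -1.16 by FPKM and -1.42 (-1.69 to -1.15) by counts, and it was the lowest of the group. In FPKM the value in the CTRL-labelled column was 2.36 times that in the KD-labelled column.

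EIF2B3, the gamma subunit, was at 16.9 and 27.0 FPKM, from counts of 241 and 409, a log2 ratio of -0.65 by FPKM and -0.99 (-1.23 to -0.76) by counts. EIF2B5, the catalytic epsilon subunit, was at -0.45. EIF2B4, the delta subunit, had the highest mean FPKM, 66.6 and 63.1, from counts of 724 and 667, with a log2 ratio of 0.08 by FPKM and -0.11 (-0.27 to 0.04) by counts. EIF2B1, the alpha subunit, had the highest ratio, with FPKM of 48.4 and 42.2 and counts of 1366 and 1214, a log2 ratio of 0.19 by FPKM and -0.06 (-0.17 to 0.05) by counts. The beta, gamma and epsilon subunits were thus lower in the KD-labelled column, while the count intervals of the alpha and delta subunits held 0. Against the median count ratio of all genes, -0.21, the interval of the alpha subunit lay above and that of the delta subunit held it.

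The eIF1 group helps the scanning complex to select the start codon, and its median log2 ratio was 0.25 by FPKM, 0.05 by counts and 0.41 once GC content and length were fitted. EIF1 had the highest mean FPKM of its group and the highest ratio, with FPKM of 803 under the KD label and 628 under the CTRL label, from counts of 7714 and 6354. Its log2 ratio was 0.35 by FPKM and 0.05 (0.00 to 0.10) by counts. EIF1B, its paralog, had the lowest mean FPKM, 24.1 and 20.02, from counts of 249 and 205, a log2 ratio of 0.25 by FPKM and 0.05 (-0.22 to 0.32) by counts. EIF1AX, which encodes eIF1A, was lower in the KD-labelled column by either measure. Its FPKM was 38.6 and 51.7, from counts of 2073 and 2777, and its log2 ratio was -0.41 by FPKM and -0.65 (-0.73 to -0.57) by counts.

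The eIF4 group held 11 genes, of which 7 were higher and 4 lower in the KD-labelled column, with a median log2 ratio of 0.21 and a range from -1.005 to 0.92. By counts the median was -0.07, beside -0.21 for all genes, and EIF4G1 and EIF4H were below 0 too. The 4 lower genes by FPKM were EIF4EBP2, EIF4E, EIF4G2 and EIF4EBP1. EIF4A1, the helicase that unwinds leaders, had the highest mean FPKM, 817 and 709, from counts of 14642 and 11452, and a log2 ratio of 0.21 by FPKM and 0.12 (0.09 to 0.16) by counts. EIF4B, which stimulates that helicase, was at 372 FPKM under the KD label and 221 under the CTRL label, from counts of 18351 and 10837, a log2 ratio of 0.75 by FPKM and 0.53 (0.50 to 0.56) by counts. EIF4H, a smaller relative of eIF4B, was at 0.14 by FPKM and -0.07 (-0.13 to -0.02) by counts. That interval lay above the median count ratio of all genes, -0.21. The helicase cofactors thus differed unequally, EIF4B being the higher by either measure.

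The cap-binding proteins went in opposite directions. EIF4E, which encodes the cap-binding protein itself, had the lowest mean FPKM of all 44 members, 4.13 under the KD label and 7.19 under the CTRL label, from counts of 180 and 244. Its log2 ratio was -0.67 by FPKM and -0.67 (-0.95 to -0.39) by counts, and it was -0.41 once GC content and length were fitted. EIF4E2, a cap-binding relative that represses rather than promotes translation, was at 107 and 56.3 FPKM, from counts of 1308 and 862. Its log2 ratio was 0.92 by FPKM, the highest of the group, and 0.37 (0.25 to 0.50) by counts, so its size depended on the measure.

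EIF4EBP2 encodes a repressor that sequesters eIF4E until mTOR phosphorylates it, and lies on chromosome 10, 72163901 to 72188374 (plus strand, GRCh37). Its FPKM was 14.96 under the KD label and 31.0 under the CTRL label, from counts of 1341 and 2780. The log2 ratio was -1.005 by FPKM, a 2.07-fold difference, and -1.28 (-1.38 to -1.19) by counts. Once the fitted effect of GC content and length was taken out it was -0.82, no longer past -1. EIF4EBP1, its more abundant relative, was at 217 and 254 FPKM, a log2 ratio of -0.23 by FPKM and -0.28 (-0.38 to -0.18) by counts.

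The scaffold genes also went in opposite directions. EIF4G2, which encodes a scaffold without the eIF4E-binding part, was at 410.2 FPKM under the KD label and 648 under the CTRL label, from counts of 10224 and 16213, a log2 ratio of -0.66 by FPKM and -0.90 (-0.93 to -0.86) by counts. EIF4G1, the main scaffold, was at 217 and 164 FPKM, a log2 ratio of 0.40. Its counts of 5485 and 5426 gave -0.21 (-0.27 to -0.16), an interval that held the median count ratio of all genes, -0.21. The sign of its ratio thus depended on the measure. EIF4G3 was at 0.38 by FPKM and 0.16 (0.01 to 0.32) by counts. EIF4A3, a helicase of the exon junction complex, was at 0.25 by FPKM.

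The products of EIF5, EIF5A, EIF5B and EIF6 act at different steps, and these mRNAs differed widely, with log2 ratios from -1.35 to 0.77 and a median of 0.08, beside -0.13 by counts. EIF5, which makes eIF2 hydrolyse its GTP at the start codon, lies on chromosome 14, 103799881 to 103811362 (plus strand, GRCh37). Its FPKM was 76.2 under the KD label and 196 under the CTRL label, from counts of 2053 and 4235. The log2 ratio of -1.35, 2.57-fold in FPKM, was the lowest of all 44 members by FPKM. The counts gave -1.27 (-1.35 to -1.20), above EIF2B2 at -1.42 and EIF4EBP2 at -1.28.

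EIF6, which keeps free ribosomal subunits apart, was at 303 and 177 FPKM, from counts of 3248 and 1758, a log2 ratio of 0.77 by FPKM and 0.66 (0.57 to 0.74) by counts, and 0.38 once GC content and length were fitted. EIF5A, a hypusine-bearing protein that helps the ribosome through difficult peptide bonds, had the highest mean FPKM of its group, 1254 and 911, from counts of 17279 and 12315, and a log2 ratio of 0.46 by FPKM and 0.26 (0.23 to 0.29) by counts, and 0.12 under that fit. EIF5B, the subunit-joining GTPase, had the lowest mean FPKM, 115 and 143, from counts of 6561 and 8041, and a log2 ratio of -0.30 by FPKM and -0.52 (-0.57 to -0.48) by counts, and -0.06 under that fit. EIF5 and EIF5B were thus lower and EIF5A and EIF6 higher in the KD-labelled column by either measure.

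The log2 ratio went with the base composition of the transcripts, among members as among all genes. Across the 44 members the Spearman correlation of log2 ratio with the GC content of the canonical transcript was 0.444, and across the 13120 genes with a known composition it was 0.462. For transcript length these correlations were -0.326 and -0.184. They are descriptions across genes that share the same libraries, and genes are not independent replicates. The median log2 ratio of all genes ran from -0.32 at 30 to 35% GC to 0.94 at 65 to 70% GC.

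The members with a log2 ratio of -1 or less had 40.5 to 45.6% GC and those with 1 or more had 40.0 to 64.6%, so the latter spanned most of the range of the group, 34.5 to 64.6%. EEF1D, at 64.6% GC, kept 1.29 of its 2.01 when a quadratic curve fitted to GC content and log2 length over all genes was removed. EEF1G kept 1.39, EIF3F was at 1.48, EIF5 was at -1.12 and EIF2B2 at -1.02. EEF2 crossed 0, to -0.11, so 8 of the 9 TOP members were higher by this measure. EIF4EBP1, at 62.9% GC, moved from -0.23 to -0.98. The part of base composition in these differences was not tested.

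**Figure D3:**
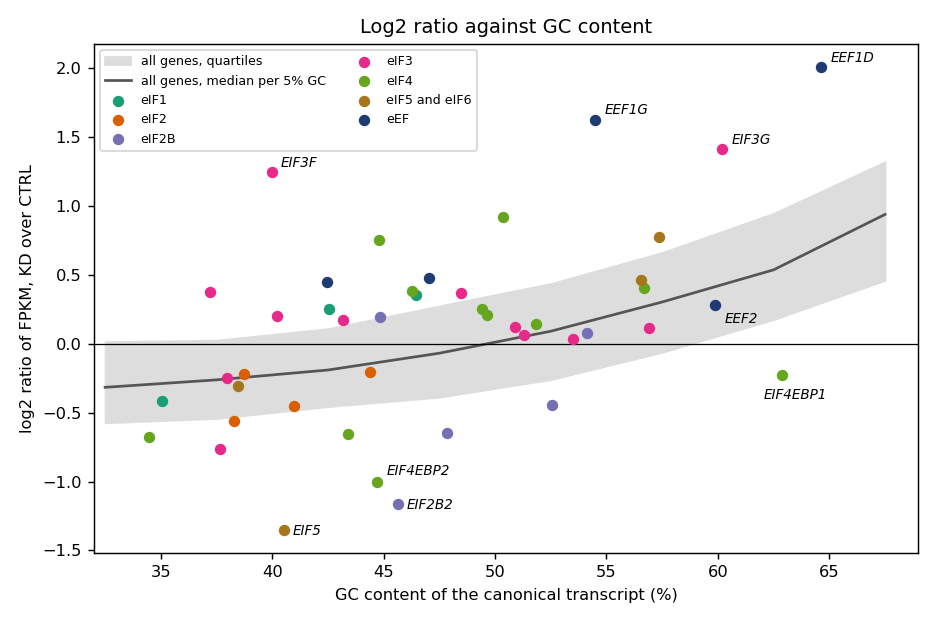
Log2 ratio of FPKM against the GC content of the canonical transcript for the 44 factor genes, coloured by factor group, with the median (line) and quartiles (shading) of all genes in bins of 5% GC. The median of all genes runs from -0.32 to 0.94, and EIF3F, EIF3G, EEF1G and EEF1D are among the genes above the shading while EIF5, EIF2B2, EIF4EBP2 and EIF4EBP1 are among those below it.

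Several factor genes have many processed pseudogenes, which share sequence with the parent. The table held 99 rows named as pseudogenes of 17 members, of which 58 had a count of 0 in both columns, and their counts summed to 38828 under the KD label and 31137 under the CTRL label. EEF1A1 had 38 such rows, and their counts equalled 69.7% and 79.9% of the count of the parent. Nearly all came from EEF1A1P5, at 1919 and 1532 FPKM. When its pseudogene counts were added, the count ratio of EEF1A1 was 0.20 (0.19 to 0.22) in place of 0.29.

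EIF3F had 2 such rows, with counts equal to 26.8% and 21.1% of the parent, chiefly EIF3FP3 at 129.7 and 47.2 FPKM. Its count ratio was 1.12 (1.05 to 1.18) with them and 1.05 without. EEF1B2 moved from 0.30 to 0.23 and EIF4B from 0.53 to 0.52. The 8 pseudogene rows of EEF1G had no counts. So the levels of EEF1A1 and EIF3F are uncertain, since reads could have been split between these copies, while no direction among these genes turned on it. For 23 of the 44 members the table gave the same locus to another gene whose mean FPKM was at least 1. A shared locus need not mean that the genes overlap, and overlap was not checked. The library kit does not keep strand, so where genes do overlap their reads cannot be told apart. EEF1D, EEF1G and EIF3G, all past 1 by FPKM, are among these 23, so this limit may hold for their values. EIF3F, EIF5, EIF2B2 and EIF4EBP2 are not among them.

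**Figure D4:**
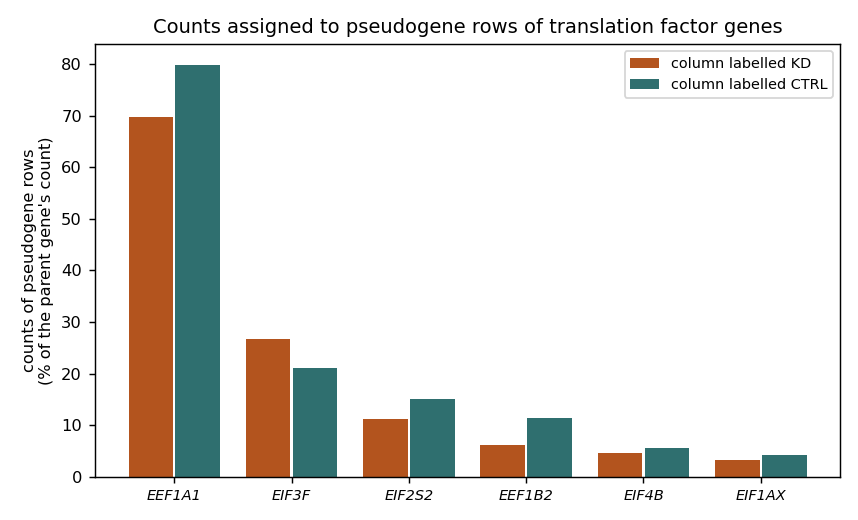
Summed estimated counts of the pseudogene rows of 6 factor genes, as a percent of the count of the parent gene, in the KD-labelled column and the CTRL-labelled column. The bars of EEF1A1 reach 69.7 and 79.9%, those of EIF3F 26.8 and 21.1%, and the others stay at 15.02% or less.

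The genes that control these factors were compared by lists. Of 15 genes of the eIF2 kinases, phosphatases and the ATF4 arm, 8 were higher and 7 lower in the KD-labelled column, with a median log2 ratio of 0.01. Only TRIB3, an ATF4 target, was past 1, at 10.7 and 4.66 FPKM and a log2 ratio of 1.04, and none was past -1 by FPKM. By counts TRIB3 was at 0.97, and once GC content and length were fitted it was at 0.52. EIF2AK1, the heme-regulated kinase of eIF2 alpha, was at 156 and 89.8 FPKM, a log2 ratio of 0.79. ASNS, another ATF4 target, was at -0.85 by FPKM and -1.21 by counts, and ATF4 itself at 0.38, so targets of ATF4 lay on both sides of 0.

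Of the 15 genes of mTOR and MNK control whose mean FPKM was at least 1, 9 were higher and 6 lower, with a median of 0.28. AKT1S1, an mTORC1 inhibitor, was at 56.6 and 14.0 FPKM, a log2 ratio of 1.95. MKNK2, a kinase of eIF4E, was at 34.4 and 12.1 FPKM, a log2 ratio of 1.44. PRKAA1, a catalytic subunit of AMPK, was at 11.2 and 25.3 FPKM, a log2 ratio of -1.11. The other kinase of eIF4E, MKNK1, lay at -0.61, MTOR at -0.32 and EEF2K, the kinase that inhibits eEF2, at -0.04, which the fit of GC content and length moved to 0.03. Under that fit AKT1S1 was at 1.23, MKNK2 at 0.97 and PRKAA1 at -0.86, so AKT1S1 alone of these 3 stayed past 1 or -1. The kinases that act on eIF4E thus lay on opposite sides of 0.

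Of 25 other initiation factors and relatives, 11 were higher and 14 lower, with a median of -0.08, and none was past 1 or -1 by FPKM. The highest was PABPC1, the poly(A)-binding protein, at 0.78, beside 0.37 by counts, and the lowest DDX3X, an RNA helicase, at -0.84, beside -1.06 by counts. Of 17 other elongation, termination and modification genes, 9 were higher and 8 lower, with a median of 0.12, and 2 were past 1. EEF1A2, the tissue-restricted paralog of EEF1A1, was at 781 and 252 FPKM, from counts of 16201 and 5254, a log2 ratio of 1.63 by FPKM and 1.39 (1.35 to 1.44) by counts. It was lower than EEF1A1 in FPKM in both columns and differed more between them. The transcripts of EEF1A2 and EEF1A1 have 64.6 and 42.5% GC, and whether reads were split between these paralogs was not tested. DOHH, the second enzyme of eIF5A hypusination, was at 15.1 and 5.71 FPKM, a log2 ratio of 1.26, whereas DHPS, the enzyme before it, was at -0.22. With GC content and length fitted, EEF1A2 was at 0.89 and DOHH at 0.26, so neither stayed past 1. EIF2C2 and TCTP, listed here under these symbols, were not matched. With 1 value per column, none of these lists can be said to differ from all genes.

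**Figure D5:**
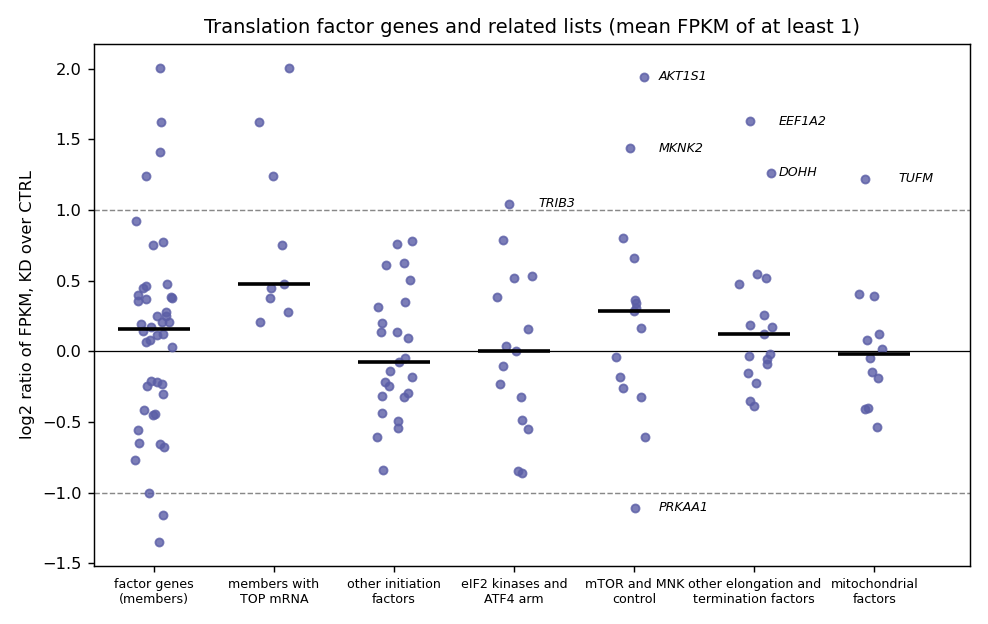
Log2 ratio of FPKM, column labelled KD over column labelled CTRL, for the factor genes, the 9 TOP members among them, and the lists of related genes, with 1 point per gene whose mean FPKM was at least 1. Bars are medians, from -0.08 for other initiation factors to 0.48 for the TOP members, and genes of the related lists past a log2 ratio of 1 or -1 (dashed) are named.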

How the data were processed

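Per the paper's methods and the submitters' processing notes, the authors mapped the reads with TopHat 1.4.1 to hg19 and computed values per group with Cuffdiff 2.2.0. The deposited table gives 1 FPKM and 1 estimated count per gene and group. How Cuffdiff combined the 3 libraries of a group is not given in the sources used here. Estimated counts in the deposited columns need not be whole. The table also holds the authors' own fold change, p-value and FDR columns and averages of FPKM, which were not used. The column totals are 13699340 and 11680567. They lie far below the reads the study states, and the unit of an estimated count is not given in the sources used here, so the intervals treat each as 1 fragment.

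From the FPKM, log2 ratios were computed after adding a pseudocount of 1, for genes whose mean FPKM was at least 1. From the counts, ratios of shares of the column totals were computed with 95% exact binomial (Clopper-Pearson) intervals. The numbers of genes past a log2 ratio of 1 or -1, and 0.5 or -0.5, are a description and not a test, since 1 value per group allows none. Where several rows shared a symbol, the row with the highest mean FPKM was kept. GC content, length and positions came from GENCODE release 44 on GRCh37, and promoter windows from RefSeq on GRCh38.p14. The scripts were tested on simulated data. The software was matplotlib 3.10.9, scipy 1.17.1, pandas 2.3.3 and numpy 2.4.6 under Python 3.11.15.

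The members and the lists, TOP and marker lists included, were chosen with earlier results of these data known. Full values are given for members with a log2 ratio of 0.5 or more or -0.5 or less, and for those with the highest and lowest mean FPKM and log2 ratio of each group. From each list of other genes, those past 1 or -1 and up to 4 more are named. Alternatives were a pseudocount of 0.1, no filter, an FPKM over 5 in at least 1 group, counts divided by column totals or by size factors, centring on the median, removal of a quadratic curve fitted to GC content and log2 length, summing rows that share a symbol, and adding pseudogene rows to the parent.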

Additional observations from a re-analysis of the deposited data

How the results depend on the processing

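No paired analysis was possible because the libraries of a group are not separated in the deposited values, and for the same reason no replicate could be left out. The counts of members past 1, -1, 0.5 and -0.5 stayed within 1.5 times under all 7 alternatives. The filters among these could not change them, since every member passes each filter. EIF2B2, EIF3F, EIF5, EEF1D and EEF1G stayed past 1 or -1 under all of them. EIF3G at 0.86 and EIF4EBP2 at -0.82 did not when the fitted effect of GC content and length was taken out, and EEF2 passed 1 with size factors, at 1.05. The signs of 33 of 44 members held throughout, and 11 changed: EIF2A, EIF2B1, EIF2B4, EIF3A, EIF3B, EIF3D, EIF3I, EIF3K, EIF4G1, EIF4H and EEF2.

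With counts divided by column totals and 1 added after scaling, where the median of all genes moved from 0.01 to -0.18, 20 members were higher and 24 lower in place of 28 and 16, and the median log2 ratios moved to -0.067 for all members, 0.048 for eIF1, -0.53 for eIF2, -0.76 for eIF2B, 0.012 for eIF3, -0.074 for eIF4, -0.13 for eIF5 and eIF6, and 0.85 for eEF. With size factors 26 were higher and 18 lower, and the eEF median was 1.05. With that effect taken out 24 were higher and 20 lower, and the medians were 0.064 for all members, 0.41 for eIF1, -0.15 for eIF2 and 0.64 for eEF. The cause of these shifts was not tested. Of 369 values of single genes under the alternatives, 271 moved by less than the counting interval and 98 by more. None of the 7 members past 1 or -1 by FPKM changed sign. Many of the 271 were fixed in advance: every member passes the filters, and centring shifts all members by only 0.01. Summing rows could change only EIF3L, so the 271 overstates how far single values held. A pseudocount of 0.1, the filters and centring left the number of higher and lower members as they were. EIF2B2, EIF4E and EIF1B have the widest counting intervals.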

Other observations

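Mitochondrial translation is served by factors of its own, and 12 of their genes were found, all of which passed the minimum mean FPKM of 1. They were evenly divided, 6 higher and 6 lower in the KD-labelled column, with a median log2 ratio of -0.02. TUFM, the mitochondrial counterpart of eEF1A, was the only one past 1, at 334 FPKM under the KD label and 143 under the CTRL label, a log2 ratio of 1.22 by FPKM and 0.67 (95% exact binomial interval 0.61 to 0.74) by counts. Neither the counts nor a fit of GC content and length, which gave 0.89, placed it past 1. TSFM, which encodes its exchange factor, was at 36.4 and 27.5 FPKM. MTIF2, the initiation factor that binds the initiator tRNA in mitochondria, was at 18.6 and 27.3 FPKM, a log2 ratio of -0.53 by FPKM and -0.87 (-1.03 to -0.70) by counts. By FPKM, as among the cytoplasmic factors, the highest ratio belonged to an elongation factor gene and the lowest to an initiation factor gene. This rests on single genes at the ends of the lists. Among the other mitochondrial elongation factor genes TSFM was at 0.39 and GFM1 at -0.40, and the initiation factor gene MTIF3 was at 0.08. Under the fit of GC content and length, the highest cytoplasmic ratio was that of an initiation factor gene, EIF3F, at 1.48. Whether these differences exceed the spread between libraries could not be tested.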
